A study of Mus musculus with 10 samples.

Results

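Cytosolic ribosomal protein genes were followed in bulk RNA-seq of 10 mouse livers, and 82 of the 55291 gene rows were taken as members. A row was a member when its symbol began with Rpl, Rps or Rplp followed by a number, with no hyphen, and its mean estimated count over the 10 livers was at least 10. The symbol rule matched 88 rows. The mean of Rpl6l, just inside, was 77.8 counts, and that of Rps3a3, just outside, was 9.26. The other 5 rows left out were Rpl32l, Rpl39l, Rps12l1, Rpl3l and Rpl10l, the last of which was at 0 in every liver. The members were thus chosen by their mean counts, which support nothing further. All 82 members passed the filter on low counts and were tested.

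All mice were females of 16 to 20 weeks from a Cas9 Lox-Stop-Lox line, and all received an AAV8-U6-sgRNA-TBG-Cre virus, in which the hepatocyte promoter TBG drives Cre and thereby Cas9. The guide was either a non-targeting control (NTC) or one against Bap1 (sgBap1), the gene of a nuclear deubiquitinase. On day 10 each mouse was given carbon tetrachloride (CCl4), a hepatotoxin, or its olive oil vehicle (Veh), and the liver was taken 48 h later. Each guide was tested in 2 mice with vehicle (NTC-Veh and sgBap1-Veh) and 3 mice with CCl4 (NTC-CCl4 and sgBap1-CCl4). Bap1 was thus targeted in hepatocytes, and the other cells of the liver were sequenced with them. P-values measure the spread between these mice, pooled over the 4 groups.

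Ribosomes are built from ribosomal RNA and a large set of mostly small, basic proteins, which are needed in matched amounts. The mRNAs of these proteins begin with a terminal oligopyrimidine (TOP) stretch, a cytosine followed by further pyrimidines, through which mTOR and Larp1 set how strongly they are translated. In liver they are among the genes that respond to growth stimuli, including the regrowth that follows loss of hepatocytes. Of the members, 43 encode proteins of the large subunit, 3 the acidic stalk that recruits elongation factors (Rplp0, Rplp1 and Rplp2), 31 were counted with the small subunit, of which Rps3a2 is annotated as a processed pseudogene and resembles Rps3a1, and 5 are other paralogues or copies of another member (Rpl7l1, Rpl22l1, Rps4l, Rps27l and Rpl6l). The genes lie on 19 chromosomes, with 4 of them on the X.

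Libraries held 33047904 to 52199904 counts, and replicates of a group correlated at 0.977 to 0.988 on a log2 scale. Levels are given as CPM, the counts of a gene relative to the scaled total of its library. Bap1, the targeted gene, was at 34.8 CPM in both NTC-Veh livers and at 17.5 and 19.5 CPM with sgBap1 and vehicle, and it was lower with sgBap1 in both treatments (log2 fold change -0.91, SE 0.12, adjusted p = 0.0208 under vehicle and log2 fold change -0.65, SE 0.10, adjusted p = 0.0295 under CCl4). The 3 adipocyte markers summed to 71.2 CPM in replicate 2 of sgBap1-CCl4 and to at most 0.0638 CPM in the other 9 livers, so counts of members are also given without this library. All 8 hepatocyte markers were detected, and their sum was 133620 to 162730 CPM in NTC-Veh livers and 75775 to 85518 after CCl4, and with sgBap1 118430 to 124070 under vehicle and 68522 to 87832 after CCl4. The sum of 4 leukocyte markers was 35.7 to 49.9 CPM in NTC-Veh livers and 202 to 243 after CCl4, and for sgBap1 it was 71.5 to 92.5 with vehicle and 201 to 248 after CCl4. That of 3 cycling-cell markers was at most 10.5 CPM with vehicle and between 131 and 251 with CCl4. In bulk tissue fewer cells of a type and less RNA per cell cannot be told apart, and the part of these cell markers in the results below was not tested.

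RefSeq start-site windows on GRCm38.p6 were at hand for 59 members. In each, the longest pyrimidine run beginning with C was searched within 25 bases on either side of the annotated start. For a gene with several windows the one with the longest run was kept, and a motif counted when any of them held it. A run of at least 8 bases was found in 32 of the 59 members (54.2%) and in 17.7% of all 27025 genes with a window. The 7-base ETS motif CCGGAAG, searched on both strands over 250 bases before to 50 after the start, was in 24 members (40.7%) and 9.93% of all genes, while TATAAA was in 7 (11.9%) and 15.7% of all genes. Start-site sequences of members on which the results turn are given here, sense strand, 5′ to 3′, with the run in capitals: Rpl12, Rps12 and Rps15a rose most in NTC livers, Rplp0 and Rplp2 belong to the stalk, and Rpl22l1 and Rpl22, like Rps27l and Rps27, are paralogues whose ratio is followed below.
Rpl12, chr2:32961704-32961733 (plus strand): caggatccgtCTTTTCggctttcggctcgg
Rps12, chr10:23787182-23787211 (minus strand): ccaccgccggCCTTTTCCCCTgccgccgcc
Rps15a, chr7:118116143-118116172 (minus strand): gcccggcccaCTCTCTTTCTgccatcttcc
Rplp0, chr5:115559470-115559499 (plus strand): ccgcctggttCTCCTataaaaggcacacgc
Rplp2, chr7:141447637-141447666 (plus strand): gcgtcagcgtCTTCCTTTCgccgccggacg
Rpl22l1, chr3:28805501-28805530 (plus strand): caagcccgttCTCTTCCCacggctgcagct
Rpl22, chr4:152324416-152324445 (plus strand): atcagcgctgCTTCTggaatgttccagctc
Rps27l, chr9:66946054-66946083 (plus strand): cccgcctccaCTCCTCTCCactcctccccg
Rps27, chr3:90213631-90213660 (minus strand): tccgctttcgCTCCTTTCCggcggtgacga
Runs in these windows were between 5 bases, in Rplp0 and Rpl22, and 11 bases, in Rps12. Those of Rps15a, Rpl22 and Rps27l began 15, 10 and 22 bases before the annotated start and ended before it. The Rpl22 window lies upstream of the gene's start in the GENCODE vM21 annotation (chr4:152325742), so its run may not be that of the start in use. Rpl12, the member with the largest CCl4 response in both genotypes, held a run of 6 bases that began at base 3, counting the annotated start as 1. Over the 59 members the median log2 fold change with CCl4 was 0.26 in NTC livers and 0.43 in sgBap1 livers for the 32 with a run of at least 8 bases, and 0.22 and 0.39 for the 27 with a shorter run. With CCGGAAG these medians were 0.23 and 0.39 (24 members) and without it 0.25 and 0.43 (35 members). A match is a stretch of letters and not a mapped start or a bound site.

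CCl4 in NTC livers was the first comparison, which asks how damage alone moved the members. 26 of 82 members rose (31.7%) and 2 fell (Rps27l and Rpl22, neither of which fell when counts were divided by library size alone), at an adjusted p under 0.05 in edgeR's quasi-likelihood test over all 17015 genes tested. Of all genes tested 27.4% rose and 26.6% fell (53.9% in either direction), so the share of members that rose was close to the background and the share that fell, 2.44%, was below it. The log2 fold change was positive in 74 of 82 members (90.2%, against 51.5% of all genes), with a median of 0.24 (quartiles 0.12 and 0.34) against 0.03 over all genes. All NTC-CCl4 livers were above both NTC-Veh livers for 48 of 82 members, as they were for 36.7% of all genes. The test was not passed by 54 members.

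Rpl12, which sits at the base of the stalk, was at 143 and 129 CPM in the NTC-Veh livers and at 197, 258 and 190.2 CPM in the NTC-CCl4 livers (log2 fold change 0.66, SE 0.14, adjusted p = 0.00266). The groups did not overlap, and the second NTC-CCl4 liver stood above the other 2. Rps12, a protein of the small subunit's head region, was at 194 and 155 CPM with vehicle and 239, 330.3 and 226 with CCl4 (log2 fold change 0.60, SE 0.17, adjusted p = 0.0137), again with the same liver highest. Rps15a, a protein of the small subunit's body, went from 116 and 101 CPM to 161, 186 and 146 (log2 fold change 0.60, SE 0.12, adjusted p = 0.00185). Rpl35, which lies beside the exit of the peptide tunnel, and Rps16 followed (log2 fold change 0.49, SE 0.13, adjusted p = 0.00803 for the first and log2 fold change 0.45, SE 0.12, adjusted p = 0.00919 for the second). Rpl6l, a pseudogene with a mean of 77.8 counts, had an estimate of 0.58 that did not pass (adjusted p = 0.283).

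By subunit, 12 of 43 large-subunit members rose and 1 fell in NTC livers (median log2 fold change 0.21), and 12 of 31 small-subunit members rose and none fell (median 0.25). The smallest rises that passed the test were those of Rpl6 (log2 fold change 0.27, SE 0.10, adjusted p = 0.0475), Rpl3 (log2 fold change 0.28, SE 0.10, adjusted p = 0.0340) and Rps29 (log2 fold change 0.31, SE 0.12, adjusted p = 0.0466). Rpl10, the member with the most counts (a mean of 27001), was at 645 and 573 CPM with vehicle and 565, 582 and 553 with CCl4, with overlapping groups (adjusted p = 0.44). Rpl36 was at 104 and 86.2 CPM and 70.1, 88.2 and 70.0 CPM, a log2 fold change of -0.32 that missed the threshold (adjusted p = 0.0533).

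The number of members that rose varied with single livers. Replicate 2 of NTC-CCl4 was the highest of its group for 81 of 82 members. Its hepatocyte, stellate cell and erythroid marker sums were also the highest of the group (erythroid 1448 CPM against 523 and 972). Its Kupffer cell, cycling-cell, B cell and endothelial sums were the lowest (Kupffer cell 426 CPM against 564 and 837). The part of these markers was not tested. Without replicate 2 of NTC-CCl4 11 members rose and 3 fell, where 26% of all genes rose, and the members' median was 0.14. Without replicate 2 of NTC-Veh, with 1 liver left in that group, the median was 0.18, and without replicate 1 of NTC-Veh it was 0.31. Without replicate 1 of NTC-CCl4 16 members rose and 1 fell (median 0.27), where 24.8% of all genes rose. Among the rises lost without replicate 2 of NTC-Veh were those of Rplp0, Rps12, Rps16, Rps19 and Rpl35. Without replicate 3 of NTC-CCl4 33 rose and none fell (median 0.30), where 24.9% of all genes rose. The median of the members stayed above that of all genes in each of these fits.

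In sgBap1 livers, 57 of 82 members rose with CCl4 (69.5%) and Rps27l and Rpl22 fell, neither of which passed as fallen with library size alone, where 29% of all genes tested rose and 28% fell (57% in either direction). The log2 fold change was positive in 79 members (96.3%, against 51.9% of all genes), with a median of 0.40 (quartiles 0.26 and 0.51) against 0.04 over all genes. Every sgBap1-CCl4 liver was above both sgBap1-Veh livers for 70 of 82 members, an arrangement found in 37.3% of all genes. Large-subunit members rose in 30 of 43 cases and small-subunit members in 23 of 31, and each subunit list had a positive median (0.35 and 0.41).

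Rpl12 again changed most, from 109 and 126 CPM in sgBap1-Veh livers to 262, 288 and 262 in sgBap1-CCl4 livers (log2 fold change 1.20, SE 0.14, adjusted p = 6.19e-05), a rise of more than the whole range within either group. Rps12 went from 167 and 167 to 292, 343 and 285 CPM (log2 fold change 0.88, SE 0.18, adjusted p = 0.00170), and Rps15a from 110.3 and 110.2 to 179, 203 and 179.9 CPM (log2 fold change 0.76, SE 0.12, adjusted p = 0.000383). For all 3 genes every CCl4 liver was above both vehicle livers. Among the smallest rises that passed were Rpl24 (log2 fold change 0.25, SE 0.10, adjusted p = 0.0418) and Rpl28 (log2 fold change 0.28, SE 0.10, adjusted p = 0.0289), while Rpl35a was at 134 and 155 CPM and 133, 137 and 166 CPM (adjusted p = 0.986). Without replicate 2 of sgBap1-CCl4, the liver with adipocyte markers, 48 members rose and 2 fell, where 26.6% of all genes rose. Without replicate 1 of sgBap1-Veh, with 1 liver left in that group, the median was 0.33.

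The members thus fell into 4 sets by their calls. The 26 that rose in both genotypes included Rpl3, Rpl6, Rpl12, Rpl13a, Rpl22l1, Rpl32, Rpl35, Rpl38, Rpl39, Rplp0, Rps4x, Rps6, Rps12, Rps15a, Rps16, Rps19 and Rps29, and the log2 fold changes of the 26 ran from 0.27 to 0.66 in NTC livers and from 0.32 to 1.20 in sgBap1 livers. Another 31 passed in sgBap1 livers alone, among them Rpl5, Rpl10a, Rpl24, Rpl27a, Rpl28, Rplp1 and Rplp2. Their log2 fold changes ran from 0.25 to 0.80 in sgBap1 livers and from -0.10 to 0.33 in NTC livers. The 23 that passed in neither, from -0.32 to 0.58 in NTC and from -0.10 to 0.70 in sgBap1 livers, included Rpl10, Rpl11, Rps18 and Rps25, and the pair that fell in both made up the last set.

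**Figure D1:**
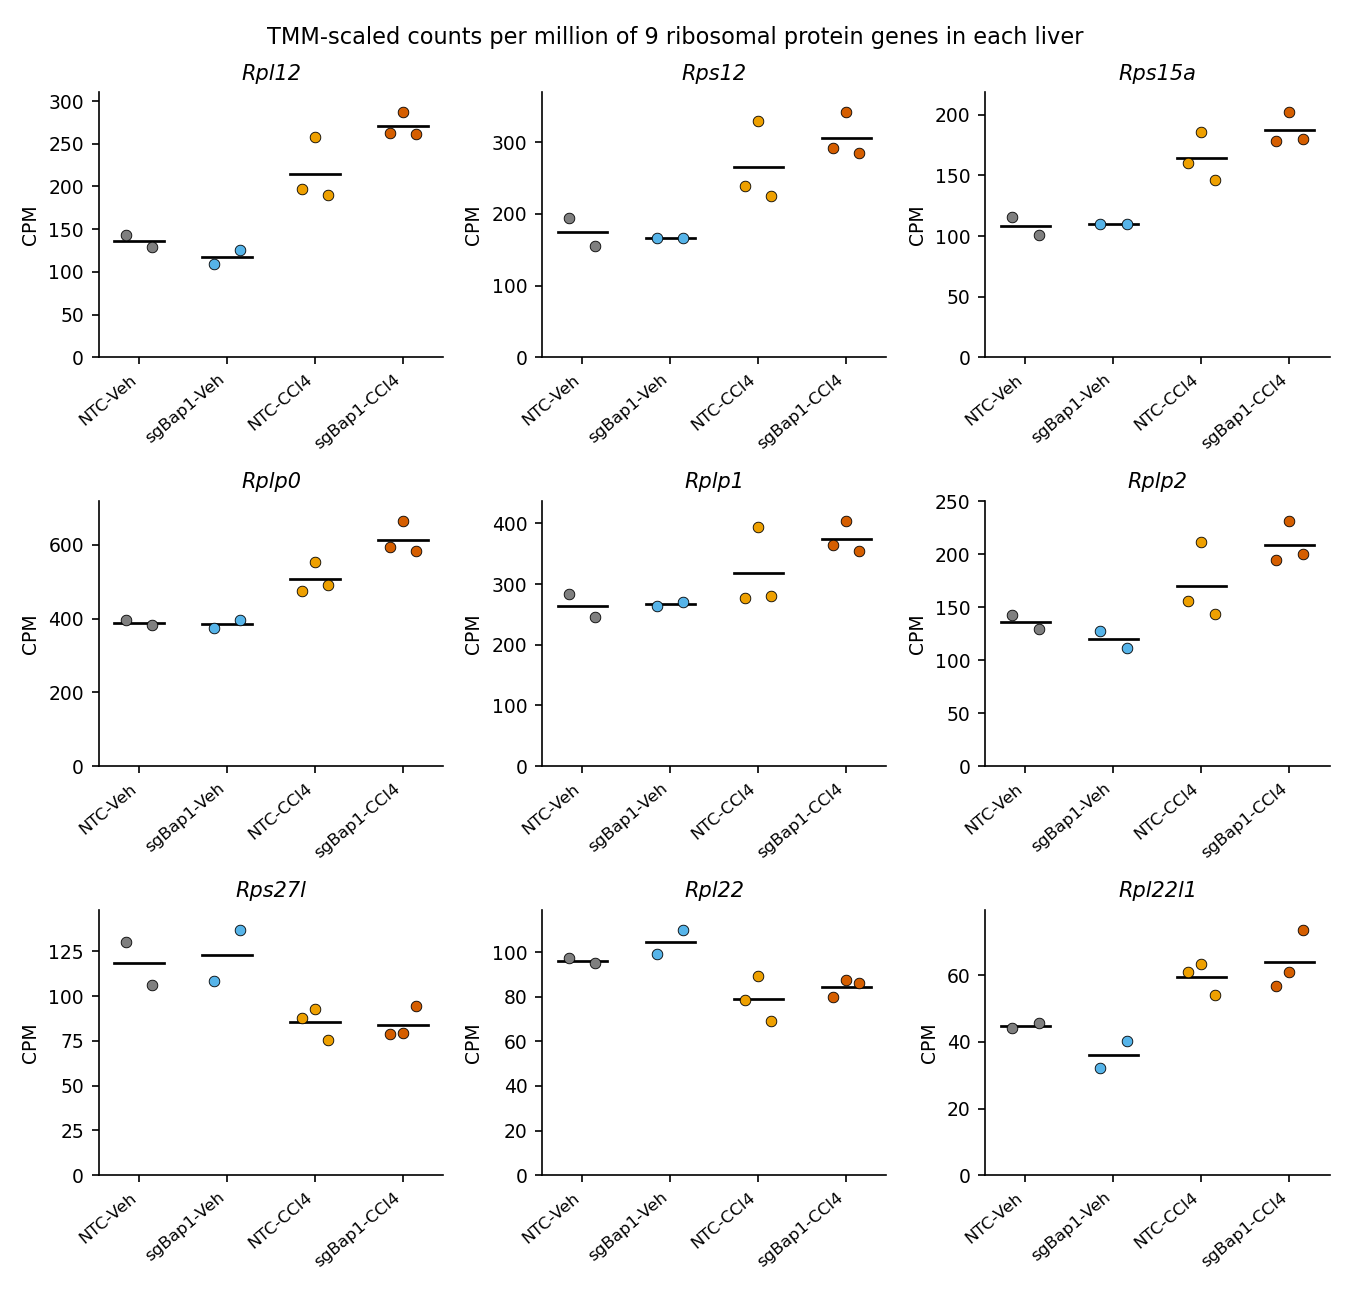
TMM-scaled CPM (vertical axes, each from 0) of 9 members in the 10 livers. Each point is 1 liver and each line a group mean. With CCl4 the first 6 genes lay higher in most livers, with replicate 2 the highest point of NTC-CCl4, and Rps27l and Rpl22 lay lower, although with division by library size alone Rpl22 lay higher with CCl4 in both genotypes and Rps27l was level in NTC livers.

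The 2 responses to CCl4 share no liver. Across the 82 members Pearson's r between the log2 fold changes was 0.864 and Spearman's rho 0.839, where all 17015 genes gave 0.832 and 0.861. Genes are not independent replicates, and all 10 livers shared the same scaling. All 26 members that rose in NTC livers (100%) also rose in sgBap1 livers, where they made up 45.6% of the 57 that rose. Of all genes tested 4659 rose in NTC livers and 4942 in sgBap1 livers, and 3905 rose in both. The estimate was larger in sgBap1 than in NTC livers for 74 of 82 members (47.6% of all genes), but the interaction, which tests this difference gene by gene, passed for none of them and in edgeR for 0 of all genes tested (0%). In DESeq2, which tested 27948 genes, 411 passed the interaction (1.47%), in edgeR without the filter 34, and again no member was among them. At an unadjusted p under 0.05 it passed for 3 members in edgeR (Rpl12, Rpl27a and Rpl22l1, all larger in sgBap1 livers, as 3.59% of all genes were), 3 in DESeq2 and 5 in limma-voom, and after adjustment for none in any of the 3 tools. The unadjusted DESeq2 and limma-voom counts stand without a share of all genes. For Rpl12 the interaction was 0.54 on the log2 scale (SE 0.20, adjusted p = 0.361). The median interaction was 0.16 over the members and -0.02 over all genes, and the members' median ran from 0.0968 without replicate 3 of NTC-CCl4 to 0.252 without replicate 2 of that group.

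**Figure D2:**
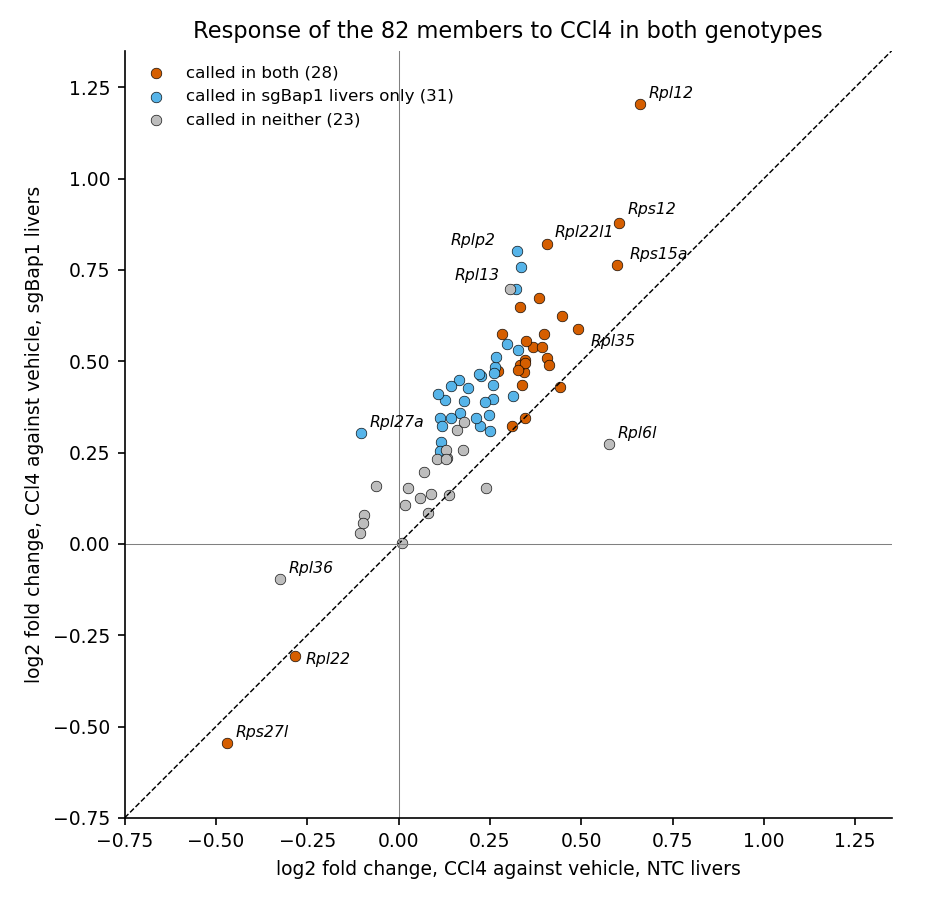
Log2 fold change with CCl4 of each member in NTC livers (horizontal) and sgBap1 livers (vertical), 1 point per gene. The dashed line marks equal change, and colours give whether the adjusted p was under 0.05 in both comparisons, in sgBap1 livers only or in neither. Most points lie above the line, yet none of the members passed the interaction test.

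Paralogues were compared with their closest relatives. Rps27l, a paralogue of Rps27 that p53 induces, was at 130.2 and 106 CPM in NTC-Veh and 87.7, 93.0 and 75.4 CPM in NTC-CCl4 (log2 fold change -0.47, SE 0.14, adjusted p = 0.0173), and at 108 and 137 CPM in sgBap1-Veh and 78.6, 79.3 and 94.5 CPM in sgBap1-CCl4 (log2 fold change -0.54, SE 0.14, adjusted p = 0.00788). It fell in both genotypes without overlap, and with library size alone its change was 0.0081 in NTC livers and -0.07 in sgBap1 livers, where the median of all genes stood at 0.50 and 0.52. Rps27 itself was at 123 and 104 CPM and then 103, 118 and 97.0 CPM in NTC livers, with overlapping groups (adjusted p = 0.528). The ratio of Rps27l to Rps27 counts, which no scaling of the library changes, was 1.04 ± 0.0289 (SD, n = 2) in NTC-Veh and 0.806 ± 0.0409 (n = 3) in NTC-CCl4, and 0.968 ± 0.0812 (n = 2) in sgBap1-Veh and 0.646 ± 0.117 (n = 3) in sgBap1-CCl4. The ratio was lower in every CCl4 liver than in any vehicle liver. The call of Rps27l itself was lost in NTC livers without replicate 1 of NTC-Veh or replicate 3 of NTC-CCl4, and in sgBap1 livers without replicate 2 of sgBap1-Veh, with estimates from -0.32 to -0.39.

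Rpl22 and Rpl22l1 encode RNA-binding proteins that can take the same place in the large subunit. Rpl22 was at 97.1 and 94.9 CPM in NTC-Veh and 78.7, 89.1 and 69.0 CPM in NTC-CCl4 (log2 fold change -0.28, SE 0.11, adjusted p = 0.0490), and at 98.9 and 110.0 and 80.1, 87.4 and 85.9 CPM in the sgBap1 groups (log2 fold change -0.31, SE 0.11, adjusted p = 0.0338). It fell by this scaling, and with library size alone its change was 0.19 and 0.18, below the medians of all genes. The NTC call was lost when any 1 of 8 libraries was left out (adjusted p from 0.0569 to 0.169) and held without replicate 2 of NTC-CCl4 or of sgBap1-CCl4, and the sgBap1 call was lost without replicate 2 of sgBap1-Veh (adjusted p = 0.211), replicate 1 of NTC-CCl4 (0.0503) or replicate 1 of sgBap1-CCl4 (0.0983). Rpl22l1 rose, from 44.2 and 45.6 to 61.0, 63.3 and 54.2 CPM in NTC livers (log2 fold change 0.41, SE 0.13, adjusted p = 0.0246) and from 32.1 and 40.2 to 56.9, 61.0 and 73.7 CPM in sgBap1 livers (log2 fold change 0.82, SE 0.13, adjusted p = 0.000480). The count ratio of Rpl22l1 to Rpl22 was 0.468 ± 0.0177 (SD, n = 2) in NTC-Veh and 0.757 ± 0.0397 (n = 3) in NTC-CCl4, and 0.345 ± 0.0285 (n = 2) in sgBap1-Veh and 0.755 ± 0.0891 (n = 3) in sgBap1-CCl4. Each CCl4 liver lay above each vehicle liver, and the 2 CCl4 groups overlapped. Rpl7l1, a paralogue of Rpl7 that acts in ribosome assembly, did not pass (log2 fold change 0.14 and 0.13, adjusted p = 0.135 and 0.136), nor did Rpl7 itself (0.02 and 0.11). Rps4l and Rpl6l, both annotated as processed pseudogenes, passed in neither genotype, whereas Rps4x, the Rps4 gene on the X chromosome, rose in both (0.34 and 0.50, adjusted p = 0.0228 and 0.00331).

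**Figure D3:**
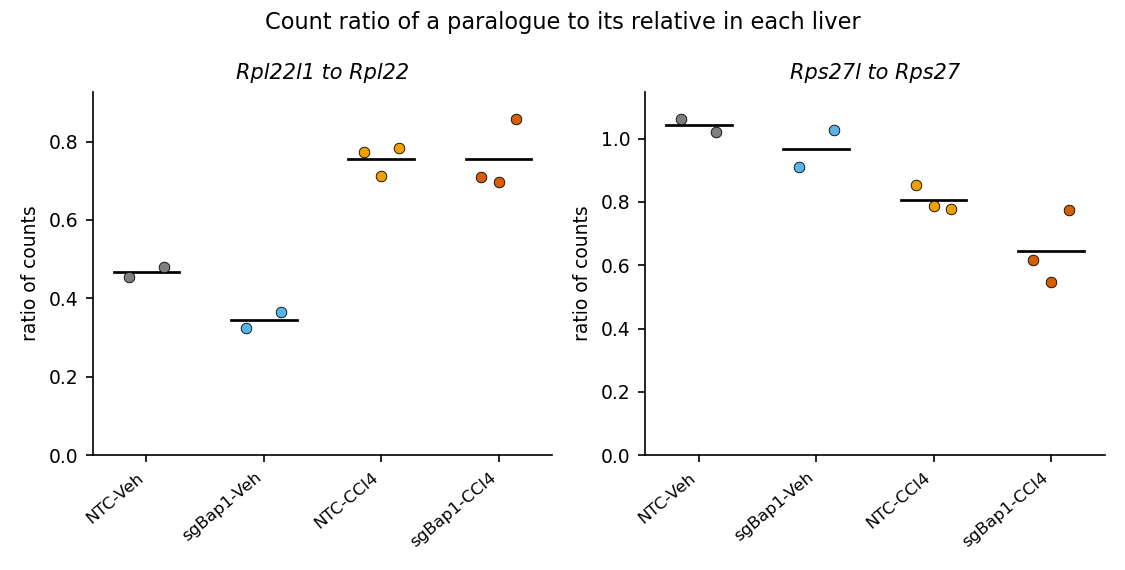
Ratio of the estimated counts of Rpl22l1 to those of Rpl22 (left) and of Rps27l to those of Rps27 (right) in each liver, by group, with axes from 0, points for livers and lines for group means. The 6 CCl4 livers lie above the 4 vehicle livers on the left and under them on the right.

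Members of known role gave the following values. Of the stalk, Rplp0 rose in NTC livers, from 395 and 382 to 476, 554 and 492 CPM (log2 fold change 0.38, SE 0.11, adjusted p = 0.0158), and in sgBap1 livers, from 374 and 396 to 594, 665 and 583 CPM (log2 fold change 0.67, SE 0.12, adjusted p = 0.000637). Its partners Rplp1 and Rplp2 passed only in sgBap1 livers (log2 fold changes 0.48 and 0.80, adjusted p = 0.0248 and 0.00189) and had 0.26 and 0.33 in NTC livers (adjusted p = 0.186 and 0.111), and their interaction did not pass (adjusted p = 0.810 and 0.511). Rps6, a substrate of the kinases downstream of mTOR, rose in both (log2 fold change 0.34, SE 0.11, adjusted p = 0.0186 in NTC and log2 fold change 0.47, SE 0.11, adjusted p = 0.00343 in sgBap1 livers). Rps19, mutated in Diamond-Blackfan anemia, also rose in both (log2 fold changes 0.40 and 0.58, adjusted p = 0.0159 and 0.00211). Of the partners Rpl5 and Rpl11, which bind Mdm2 when ribosome assembly fails, Rpl5 rose in sgBap1 livers (log2 fold change 0.44, SE 0.11, adjusted p = 0.00605) and had 0.26 in NTC livers (adjusted p = 0.0649), whereas Rpl11 had 0.03 and 0.15 (adjusted p = 0.877 and 0.315). Rpl3, which lines the peptidyl transferase centre, rose in both (log2 fold change 0.28, SE 0.10, adjusted p = 0.0340 in NTC and log2 fold change 0.57, SE 0.10, adjusted p = 0.000753 in sgBap1 livers).

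Among proteins studied as variable parts of the ribosome, Rpl38 rose in both genotypes (log2 fold changes 0.35 and 0.34, adjusted p = 0.0263 and 0.0262), Rpl10a rose in sgBap1 livers (0.51, adjusted p = 0.00744) and had 0.27 in NTC livers (adjusted p = 0.112), and Rps25 passed in neither (0.09 and 0.14). Several members serve as reference genes for qPCR. Of these Rplp0, Rpl13a and Rpl32 rose in both genotypes, with log2 fold changes of 0.37 and 0.54 for Rpl13a and 0.35 and 0.50 for Rpl32. Rps18 and Rpl19 passed in neither by TMM scaling, with -0.09 and 0.08 for Rps18 and 0.07 and 0.20 for Rpl19. With library size alone 78 of the 82 members rose in NTC livers and 79 in sgBap1 livers. Of 10 other reference genes 3 rose and 3 fell in NTC livers and 4 rose and 3 fell in sgBap1 livers, with Actb at 1.86 and 1.54 and Sdha at -0.74 and -0.84, and with library size alone 6 rose in each while 1 and 2 fell.

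The share of all counts that fell on the members was 1.22% ± 0.00101 (SD, n = 2) in NTC-Veh and 1.96% ± 0.178 (n = 3) in NTC-CCl4, and 1.24% ± 0.0461 (n = 2) in sgBap1-Veh and 2.26% ± 0.237 (n = 3) in sgBap1-CCl4. The 6 CCl4 livers, 1.84% to 2.54%, lay above the 4 vehicle livers, 1.21% to 1.27%, and the 95% Wilson interval of each share was at most 0.00456 percentage points wide on either side, for counting error alone. The ranges of the CCl4 groups overlapped, at 1.84% to 2.17% in NTC and 2.12% to 2.54% in sgBap1. The ratio of CCl4 to vehicle was 1.61 in NTC and 1.83 in sgBap1 livers. Divided by the TMM-scaled library the shares were 1.49%, 1.73%, 1.51% and 1.97% in the same order and the ratios 1.16 and 1.31. Small-subunit members held 0.624 ± 0.00858 (SD, n = 2) times the counts of large-subunit and stalk members in NTC-Veh and 0.632 ± 0.00735 (n = 2) in sgBap1-Veh, and 0.650 ± 0.0108 (n = 3) and 0.656 ± 0.00921 (n = 3) in the CCl4 groups.

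**Figure D4:**
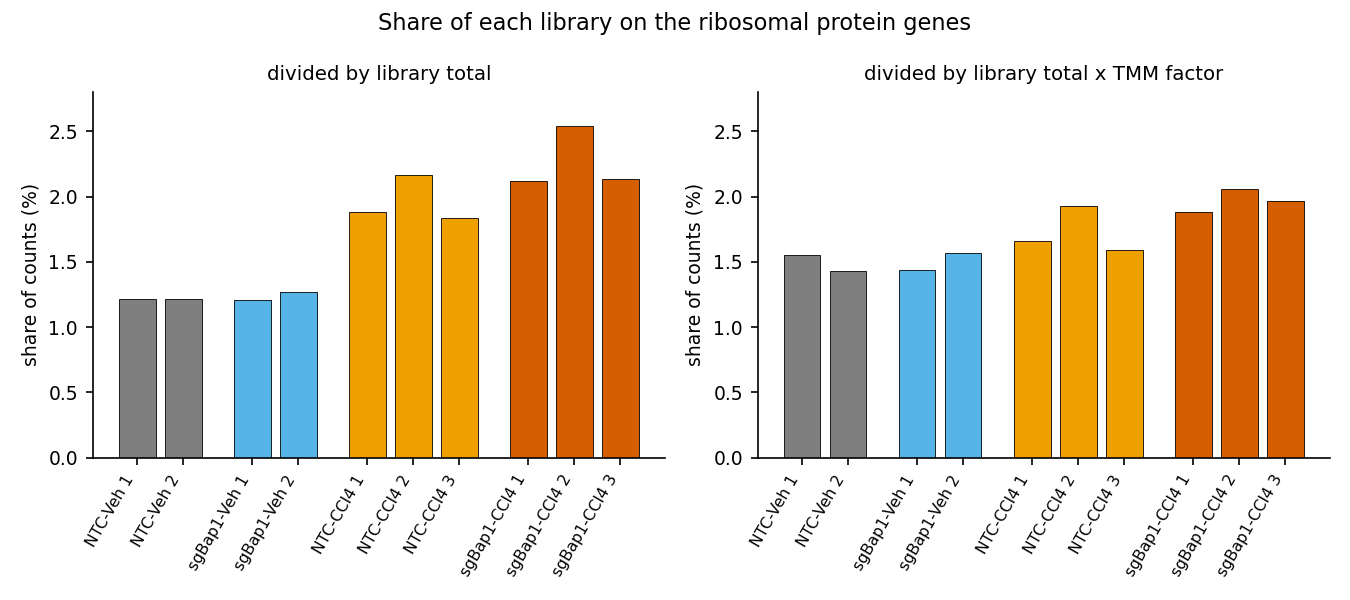
Share of counts on the 82 members in each of the 10 livers, in percent, with bars from 0, divided by the library total (left) and by that total times its TMM factor (right). All CCl4 bars are higher than all vehicle bars on both scales, and the gap is smaller on the right.

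The number of members called depended on how libraries were scaled. With library size alone 78 members rose in NTC livers and 79 in sgBap1 livers, where 50% and 50.6% of all genes tested rose. None of the members fell, and their medians were 0.72 and 0.88. The same choice moved the median of all genes from 0.03 to 0.50 and from 0.04 to 0.52, and it turned a split of 4659 risen and 4519 fallen genes into 8500 of 10561 called genes risen in NTC livers, and in sgBap1 livers 4942 of 9700 into 8614 of 11002. Relative to all genes the members thus stood higher under either scaling.

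Bap1 targeting with vehicle moved no member past the test. Of all genes 0.406% passed in either direction. At an unadjusted p under 0.05 1 member passed in edgeR, where it was lower with sgBap1 (5.25% of all genes were). In DESeq2 1 member passed at that threshold and in limma-voom 2, counts without a share of all genes beside them. None passed after adjustment in any tool. The median log2 fold change was 0.02, as it was over all genes, and 51 of 82 members were positive (62.2%, against 53.4%). Rpl3, the member with the smallest unadjusted p, was at 305 and 308 CPM in NTC-Veh and 246 and 271 in sgBap1-Veh (log2 fold change -0.25, SE 0.11, adjusted p = 0.396). Rpl22l1 had the lowest estimate, -0.32, and Rpl17 the highest, 0.18 (adjusted p = 0.413 and 0.646).

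Bap1 targeting with CCl4 left no member past the test either, where 0.329% of all genes passed. The estimates were nearly all of 1 sign, as 80 of 82 members were positive (97.6%, against 50.4% of all genes), with a median of 0.18 (quartiles 0.15 and 0.21) against 0.0020 over all genes. At an unadjusted p under 0.05, 16 members passed in edgeR, all of them higher (6.32% of all genes), 25 in DESeq2 and 16 in limma-voom, with none after adjustment in any of the 3. The DESeq2 and limma-voom counts stand without a share of all genes at that threshold. After adjustment DESeq2 called 1.72% of all genes, against 0.329% in edgeR. Rps27 was at 103, 118 and 97.0 CPM in NTC-CCl4 and 127, 145 and 122 CPM in sgBap1-CCl4 (log2 fold change 0.31, SE 0.11, adjusted p = 0.244) and Rplp0 at 476, 554 and 492 and 594, 665 and 583 CPM (log2 fold change 0.28, SE 0.10, adjusted p = 0.265). Neither gene overlapped between the groups. The highest estimate was that of the pseudogene Rps4l, 0.45 (adjusted p = 0.428), and the exceptions to the sign were Rps27l, at -0.02, and Rpl6l, at -0.21.

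This one-sided pattern came with a difference between livers of the same group. For 77 members replicate 1 of NTC-CCl4, and for 81 members replicate 3, lay below all 3 sgBap1-CCl4 livers, whereas replicate 2 did so for 19 members and lay above all 3 for 9. All 3 sgBap1-CCl4 livers were above all 3 NTC-CCl4 livers for 19 of 82 members, and for 10.1% of all genes. Leaving out replicate 2 of NTC-CCl4 gave a median of 0.26, replicate 3 of NTC-CCl4 0.12, and replicate 2 of sgBap1-CCl4 0.14, with no member past the test in any of these fits. The count at an unadjusted p under 0.05 moved further, from 16 to 57 without replicate 2 of NTC-CCl4, 0 without replicate 1 and 1 without replicate 3 of that group, and 4 and 8 without replicates 2 and 3 of sgBap1-CCl4. The share of all genes given above, 6.32%, belongs to the fit of all 10 livers, so these counts stand without a background of their own. The genes of this comparison are read in the same libraries, which share their depth and scaling, so the 82 estimates are not 82 separate observations.

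Other gene groups of ribosome production gave the following responses to CCl4. Of 78 mitochondrial ribosomal protein genes, whose products belong to the ribosome of the mitochondrion, 43 fell and 3 rose in NTC livers (median log2 fold change -0.29) and 46 fell and 2 rose in sgBap1 livers (median -0.31), although with library size alone the medians were 0.19 and 0.17, below those of all genes. The lowest were Mrps35 in NTC livers (-0.94) and Mrpl14 in sgBap1 livers (-1.14). Of 42 ribosome biogenesis factors 29 rose and 3 fell in NTC livers and 30 rose and 4 fell in sgBap1 livers, with a median of 0.40 in both, and none fell with library size alone. Tcof1, a nucleolar factor of ribosomal RNA synthesis, had the largest rise in NTC livers (1.21) and Rrp12, an export factor of pre-ribosomes, in sgBap1 livers (1.36). The list of 16 other TOP mRNAs was mixed, with 5 risen and 4 fallen in NTC livers and 8 and 2 in sgBap1 livers, with Vim, an intermediate filament gene, at 2.92 and 3.12 and the initiation factor gene Eif4b at -1.05 and -0.91, and with library size alone 1 fell in each genotype.

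Of 9 genes that control TOP mRNAs or respond to failed ribosome assembly, 3 rose and 3 fell in each genotype, and with library size alone 5 rose and 1 fell. Myc, which activates ribosomal protein and biogenesis genes, was at 14.3 and 5.76 CPM in NTC-Veh, 19.0, 25.5 and 20.8 in NTC-CCl4, 2.96 and 4.72 in sgBap1-Veh and 28.9, 30.4 and 23.2 in sgBap1-CCl4. It had the largest rise of the list in both genotypes, 1.12 in NTC and 2.86 in sgBap1 livers (adjusted p = 0.0252 and adjusted p = 0.000333), with an interaction of 1.74 (adjusted p = 0.249) in edgeR. In DESeq2 its interaction was 1.72 (adjusted p = 0.0132) and passed, and in limma-voom it did not pass (adjusted p = 0.335). Eif4ebp2, a repressor of translation that mTOR inactivates, had the largest fall in both (-0.94 and -0.84). Of 4 cytosolic ribosomal protein genes whose symbols the rule does not take, 1 rose and 1 fell in each genotype. Rpsa rose in both (0.51 and 0.72), Fau, made as a fusion with a ubiquitin-like protein, fell in sgBap1 livers (-0.25), and Rpl36al passed in neither. None of the 4 fell with library size alone. With sgBap1 under CCl4 none of these lists had a gene past the test in edgeR or limma-voom. In DESeq2 1 of 16 other TOP mRNAs and 2 of 9 control genes were higher, as were 200 of all 27948 genes (0.716%). The other TOP mRNAs had the same median as the members in this comparison, 0.18, with 16 of 16 positive (50.4% of all genes). Of them 10 were higher without overlap (10.1% of all genes). The medians were 0.01 for the mitochondrial list and 0.04 for the biogenesis list.

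**Figure D5:**
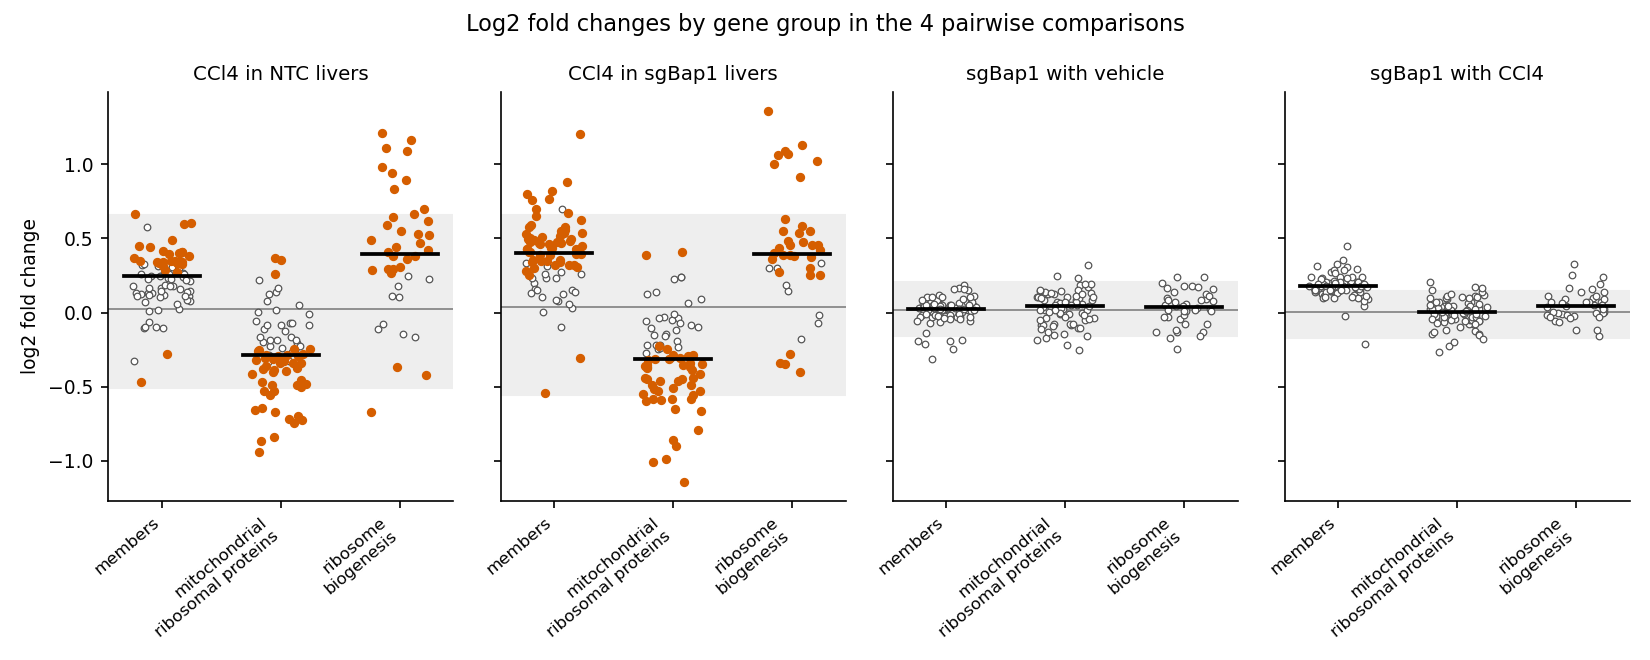
Log2 fold changes of the members, mitochondrial ribosomal protein genes and ribosome biogenesis factors in the 4 pairwise comparisons, 1 point per gene. Filled points had an adjusted p under 0.05, black lines are medians, and the grey line and band give the median and quartiles of all 17015 genes. The members' median is 0.24 and 0.40 with CCl4, and with division by library size alone the mitochondrial medians of -0.29 and -0.31 become positive.

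Many members have processed copies elsewhere in the genome, and reads can be split between them. A median of 20.8% of the 50-base stretches in a member's transcripts occurred in another gene (GENCODE vM21), up to 90.2% in Rps3a2, with over 50% in 8 members, among them Rpl36, Rplp1, Rpl19 and Rps3a1, whose values are uncertain to that extent. The 306 rows named as pseudogenes of 62 members held 3.34% to 3.86% of the summed counts of members and these rows. With those rows added to their members 27 rose in NTC livers and 57 in sgBap1 livers, where 27.6% and 29.2% of all genes rose. Among the 15 members with under 10% of such stretches 5 rose and 1 fell in NTC livers and 9 rose and 1 fell in sgBap1 livers, with medians of 0.30 and 0.46. Of all genes tested 27.4% rose in NTC livers and 29% in sgBap1 livers, with medians of 0.03 and 0.04.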

How the data were processed

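Poly-A-selected RNA of fresh frozen liver was sequenced with 50-base reads as 10 stranded libraries. The authors aligned reads with STAR 2.7.6a and quantified genes with Salmon 1.4.0 on GRCm38, and deposited estimated counts, not normalised, for 55291 genes, of which 9.22% of values were not whole. These were rounded to whole numbers. In edgeR 4.0.16 (R 4.3.3), 17015 genes passed filterByExpr, and a quasi-likelihood model of the 4 groups (robust, TMM factors) was fitted to all 10 libraries, with Benjamini-Hochberg adjustment over all genes and a two-sided threshold of 0.05. CPM values are scaled by TMM, so a fold change is relative to the bulk of genes. The script was tested on simulated data. DESeq2 1.42.0, limma-voom (limma 3.58.1), other scalings, filters, a replicate block and leaving out each library were tried, and the edgeR 3 method was added after seeing the data. Replicate numbers did not pair the mice. Counting stretches shared between genes used GENCODE vM21, and start-site windows came from RefSeq (GRCm38.p6). Members and gene lists were chosen with earlier results of these data known. Named members were paralogues and their relatives, members of known role, and the 5 highest and 5 lowest fold changes of each comparison, and of each other list the 2 highest and 2 lowest. Rpl27a was also named for its interaction. Values of some genes are not reported here.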

Additional observations from a re-analysis of the deposited data

How the results depend on the processing

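With library size alone 78 members were called in NTC livers in place of 28, and 62.1% of all genes in place of 53.9%. With it 3 changes turned positive: Rps27l in NTC livers (0.0081), Rpl22 in NTC livers (0.19) and Rpl22 in sgBap1 livers (0.18). Leaving out 1 library gave 5 to 33 called members in NTC livers and 31 to 64 in place of 59 in sgBap1 livers, and none in either comparison of sgBap1 with NTC or in the interaction. Other scalings, tools and filters kept the calls within 1.5 times of these numbers. The fit with 33 called members in NTC livers left out replicate 3 of NTC-CCl4, and 48.4% of all genes were called there. That share was above the share of the members. The fit with 64 in sgBap1 livers left out replicate 2 of NTC-CCl4, and 56.8% of all genes were called, below the share of the members. The fits with 5 and 31 had 1 vehicle liver in a group, so no share of all genes is set beside them. With the replicate number as a block, 24 members were called in NTC livers and 53 in sgBap1 livers and none in the other comparisons. Of all genes 49.4% were then called in NTC livers and 52.3% in sgBap1 livers. Same-numbered livers did not deviate together (correlations of -0.15 to 0.10), so this block pairs nothing known. The share of counts on the members, was 1.52% in NTC-Veh, 2.42% in NTC-CCl4, 1.50% in sgBap1-Veh and 2.77% in sgBap1-CCl4 without the 10 top genes of each library and, in this order, 1.49%, 1.73%, 1.51% and 1.97% when scaled by TMM, and with pseudogene rows added it was 1.26% in NTC-Veh and 1.28% in sgBap1-Veh. Of the values for single named genes, 30 calls were lost over the alternatives that kept all libraries and 103 over those that left 1 out, beside 462 and 347 that did not change. With 2 vehicle mice a group, 1 liver moves a vehicle mean by much of its spread, and the cause of these changes was not tested. The members with few counts had larger errors, with an SE of 0.43 for the CCl4 response of Rpl6l in NTC livers.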
